A study of Mus musculus with 79 samples.

Results

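The genes described here are 40 genes of DNA replication and mitosis, taken by symbol from the 23361 genes measured in each of 79 RNA-seq libraries of the injured mouse sciatic nerve. All 40 symbols were found in the count table of macrophages, of Schwann cells and of distal stump. They were named by symbol, with no measured value in the rule. They fall into 6 roles, namely 4 G1/S cyclins and transcription factors, 8 replication licensing and origin firing factors, 5 genes of nucleotide supply and the replication clamp, 9 S/G2/M cyclins, kinases and checkpoint kinases, 7 chromosome, kinetochore and anaphase genes, and 7 spindle and cytokinesis genes.

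The study grafted a freshly cut common peroneal nerve branch to the tibial stump of S100β-eGFP mice, which carry green fluorescent protein under the human S100B promoter to mark Schwann cells. In the immediate group the tibial nerve was cut and repaired in the same operation, after a sham incision 8 weeks earlier, and in the delayed group the tibial stump had been left denervated for 8 weeks before repair. Both groups carried a silicone conduit around the suture, and the reporter was present in every animal, controls included. Macrophages (MAC) and Schwann cells (SC) were sorted from the tissue in the conduit, the regenerative bridge, at day 5 and day 14 after repair, and the distal stump (DS) was taken at day 5 only. The labels give the bridge as the tissue of every library and name the distal stump as its cell type. At day 5 there were 8 immediate and 9 delayed MAC samples, 7 and 9 SC samples, and 7 and 9 DS samples. At day 14 both MAC and SC had 8 immediate and 7 delayed samples. They came from 32 male and female animals, of which 31 gave both cell types and 15 gave all 3 samples. The age of the mice is not given in the labels.

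Cells divide by copying their DNA in S phase and separating the copies in mitosis. The MCM proteins form the helicase ring that is loaded on replication origins and unwinds DNA, cyclin-dependent kinases with their cyclins order the steps, and a spindle of microtubules with its motors and kinetochores pulls the chromosomes apart before the cell is cleaved. After a nerve is cut, Schwann cells, fibroblasts, endothelial cells and macrophages of the degenerating stump are all known to divide. E2F factors act on S phase genes, and the DREAM and MuvB complexes, with B-MYB and FOXM1, act on mitotic genes through CHR elements. CCAAT boxes are a separate promoter motif.

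The regulatory sequence in front of these genes is shown for 3 mitotic genes and 3 replication genes, because the mitotic and the replication genes differed in size of change in the stump; the 6 genes were chosen after their values were seen. RefSeq promoters of GRCm38.p6 were matched for 33 of the 40 genes and gave 35 start sites. Prc1 and Mcm7 each had a further start site, and every window was counted, although those of Prc1 overlap. Ccna2, Mcm4, Aurkb, Kif20a, Tpx2, Foxm1 and Ccne2 were not matched. Capitals mark, on either strand, the CHR letters TTTGAA or TTTAAA, the letters CCAAT, and the E2F letters TTTCGCGC, TTTGGCGC or TTTCCCGC. Each stretch below has 150 bases and reads 5′ to 3′ on the strand of the gene.

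Cdc20, chr4:118437344-118437493, minus strand: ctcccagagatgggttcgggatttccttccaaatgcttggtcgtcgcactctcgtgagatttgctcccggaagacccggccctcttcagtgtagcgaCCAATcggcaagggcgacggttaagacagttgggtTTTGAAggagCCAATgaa
Ccnb1, chr13:100786487-100786636, minus strand: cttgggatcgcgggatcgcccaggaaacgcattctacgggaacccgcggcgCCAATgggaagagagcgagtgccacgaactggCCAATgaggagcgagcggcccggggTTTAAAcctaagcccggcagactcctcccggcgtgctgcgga
Mki67, chr7:135716380-135716529, minus strand: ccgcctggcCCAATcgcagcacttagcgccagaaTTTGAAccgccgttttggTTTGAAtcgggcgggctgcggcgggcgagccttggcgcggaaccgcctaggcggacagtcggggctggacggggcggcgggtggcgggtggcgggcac
Mcm6, chr1:128359706-128359855, minus strand: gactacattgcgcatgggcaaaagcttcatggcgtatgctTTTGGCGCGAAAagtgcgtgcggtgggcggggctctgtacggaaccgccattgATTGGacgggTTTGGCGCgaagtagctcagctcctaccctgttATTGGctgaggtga
Mcm5, chr8:75109359-75109508, plus strand: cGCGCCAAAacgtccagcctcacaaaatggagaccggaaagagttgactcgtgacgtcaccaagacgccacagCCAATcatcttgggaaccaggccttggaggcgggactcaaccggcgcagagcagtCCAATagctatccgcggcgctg
Tyms, chr5:30073626-30073775, minus strand: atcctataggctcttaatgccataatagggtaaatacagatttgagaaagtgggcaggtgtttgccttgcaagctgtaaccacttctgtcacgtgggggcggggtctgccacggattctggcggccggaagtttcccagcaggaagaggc

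Cdc20, Ccnb1 and Mki67 each held CHR letters and CCAAT in these windows, Mcm6 and Mcm5 held E2F letters and CCAAT, and the Tyms window held none of the 3 motifs. In the full 300-base windows, from 250 bases before to 50 after a start, 18 of 20 promoters of the cyclin-kinase, chromosome and spindle genes held CHR letters (90.0%), against 5 of 13 for the licensing and nucleotide genes (38.5%) and 27.6% of all 32851 promoters. CCAAT stood in 27 of the 35 windows (77.1%) against 37.4% of all promoters. E2F letters stood in 5 of the 13 licensing and nucleotide windows (38.5%) and in 1 of the 20 mitotic windows (5.0%), against 1.84% of all promoters. In Mcm6 an E2F match on one strand and a match on the other share bases. These matches describe letters in a window and not a bound site.

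Levels are given as CPM, a count divided by the library total and multiplied by 1000000. Library totals ran from 14928745 to 28499407 in MAC, 11614940 to 30796823 in SC and 3898778 to 9212709 in DS. All 40 genes had reads in every DS library, whereas 26 had reads in all 32 MAC libraries and 16 in all 31 SC libraries. Bub1, a spindle checkpoint kinase, was most often at 0, in 8 MAC and 11 SC libraries. Among genes with a group median of 5 CPM or more, the median coefficient of variation between replicates was 20.9% and 26.0% in immediate and delayed DS, over all 40 genes. It was 27.8% to 34.0% over 12 or 13 genes in the MAC groups and 60.8% to 78.0% over 18 to 37 genes in the SC groups, so the gene sets behind these values differ. Macrophage markers summed to 10998 to 15879 CPM in MAC, so that label was met. In libraries labelled SC the 8 Schwann cell markers summed to 142 to 3396 CPM while 8 dendritic cell markers summed to 17017 to 38377 CPM. S100b itself lay between 0.592 and 24.7 CPM in the immediate day 5 group. The sorted GFP-positive fraction is therefore called SC here as its label, and its values are not assigned to Schwann cells alone.

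**Figure D1:**
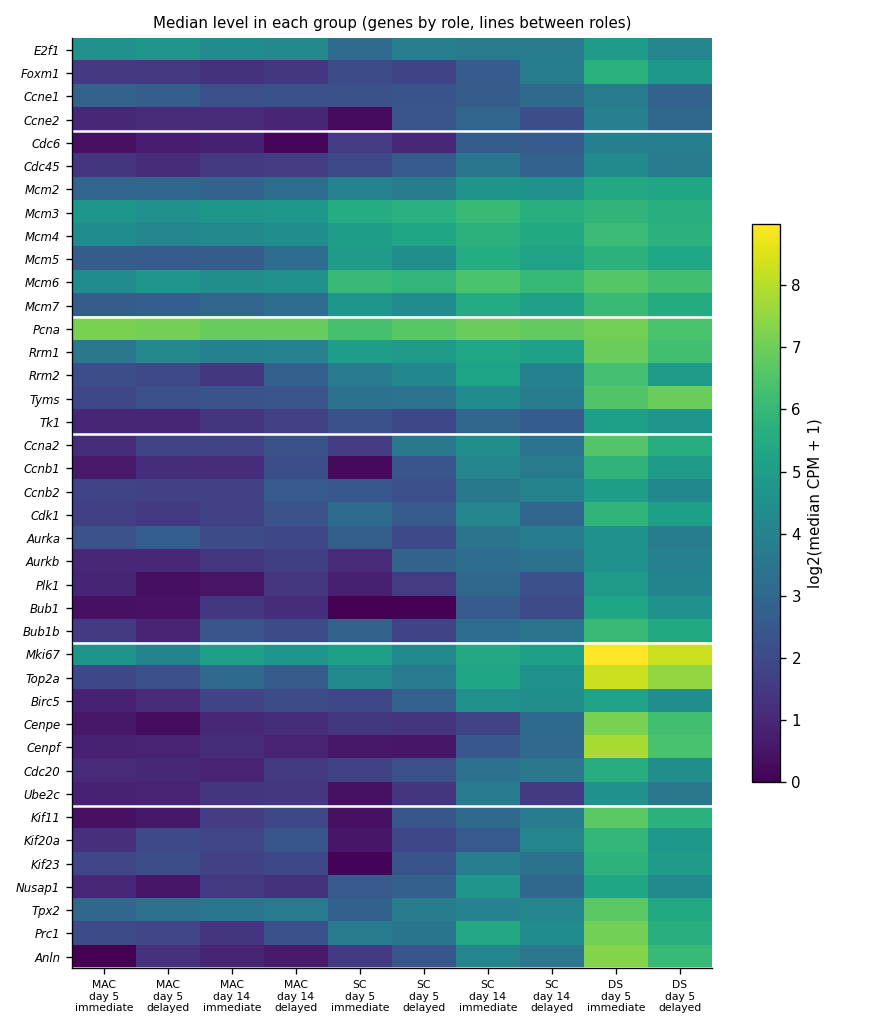
Median CPM of each of the 40 genes in the 10 groups, on a log2(CPM + 1) colour scale, with genes in rows ordered by role and groups in columns. The DS columns are the highest for most genes, and Pcna stands above the other genes in every MAC and SC group.

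Per kilobase of exon, Pcna, the sliding clamp of the replication fork, was the highest of the 40 genes in immediate MAC, SC and DS alike, with medians of 77.6 CPM per kb in day 14 MAC, 79.8 in day 14 SC and 87.5 in day 5 DS. The genes that followed differed. In DS they were Top2a, the topoisomerase that untangles chromosomes, at 58.6 CPM per kb and Mki67, which coats mitotic chromosomes and encodes the Ki-67 antigen, at 50.0 CPM per kb, then the spindle midzone protein Prc1 at 43.4 CPM per kb. In day 14 SC the ring subunits Mcm3 and Mcm6 followed at 21.6 and 19.4 CPM per kb, and in day 14 MAC they were Mcm3 at 8.53 and the S phase factor E2f1 at 5.99 CPM per kb. DS libraries were made from rRNA-depleted RNA and the sorted cells from amplified cDNA, so no test was made between DS and sorted cells.

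Delayed repair was compared with immediate repair first in the distal stump at day 5, the whole tissue into which axons grow. All 40 genes passed the filter on low values (6 or more of the libraries compared at 5 CPM or above). Of these 34 were lower after delayed repair and 0 were higher (edgeR quasi-likelihood test, adjusted p under 0.05), where 13.5% of the 12229 genes tested were called lower and 12.8% higher. The median log2 fold change of the 40 genes was -0.84, beside 0.02 over all genes tested. The largest fall was that of Prc1, to a level 2.74-fold lower. In whole tissue, fewer dividing cells and less of these RNAs per cell cannot be told apart.

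The mean log2(CPM + 1) over the 40 genes was 5.46 at the lowest, 5.92 at the median and 6.16 at the highest in the 7 immediate DS libraries, and 4.52, 5.13 and 5.50 in the 9 delayed ones. The ranges touched, with the highest delayed library just above the lowest immediate one. For 9 genes (Anln, Bub1, Ccnb1, Ccne1, Cdc20, Cdk1, Cenpf, Kif20a and Prc1) every delayed library lay below every immediate one after TMM scaling, where this held for 3.56% of all genes tested in that direction.

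**Figure D2:**
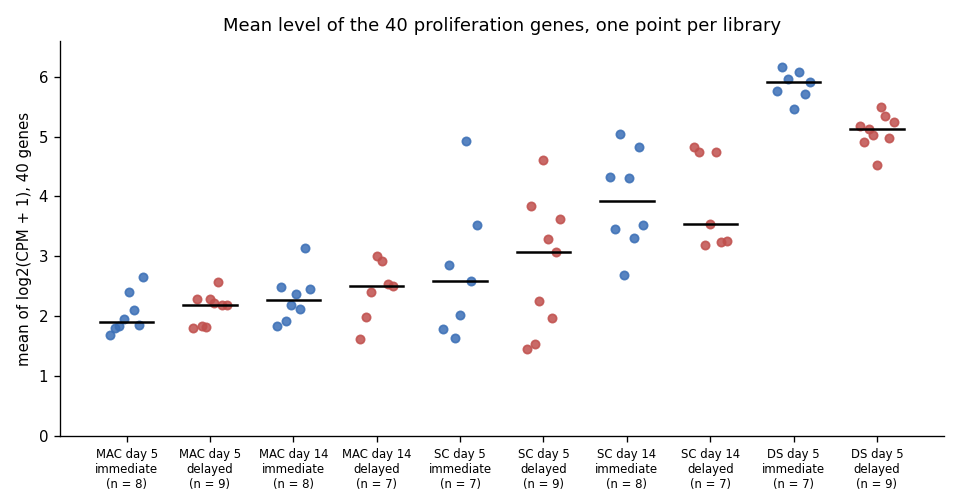
Mean of log2(CPM + 1) over the 40 genes in each library, 1 point per library and a bar at each group median, for MAC, SC and DS by day and repair. The delayed DS points run from 4.52 to 5.50 and the immediate ones from 5.46 to 6.16, while the repair groups of MAC and of SC overlap on both days.

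The spindle and cytokinesis genes fell most as a group, 7 of 7 with a median log2 fold change of -1.07. Prc1, which bundles microtubules between the separating chromosomes, lay at 91.0, 133 and 201 CPM (lowest, median, highest) in immediate DS and at 30.7, 49.4 and 71.3 CPM in delayed DS. It fell by 1.45 on the log2 scale (SE 0.18, edgeR adjusted p = 2.91e-05). Anln, the anillin that scaffolds the cleavage furrow, lay at 105, 157 and 236 CPM against 33.0, 67.4 and 88.2 CPM. It fell by 1.34 on the log2 scale (SE 0.19, edgeR adjusted p = 8.67e-05). In both genes the highest delayed library was below the lowest immediate one. Kif20a, a kinesin needed for cleavage, fell by 1.08 (SE 0.18, edgeR adjusted p = 3.38e-04). Nusap1, which attaches spindle microtubules to chromatin, fell by 1.07 (SE 0.18, edgeR adjusted p = 3.70e-04), and Tpx2, the activator of Aurora A on the spindle, by 1.04 (SE 0.17, edgeR adjusted p = 3.27e-04), also on the log2 scale. The motors Kif11 and Kif23 had log2 fold changes of -0.83 and -0.76. Exons of Kif20a overlap those of Cdc23 on the other strand over 31.8% of their length, and those of Prc1 overlap Rccd1 over 21.8%. Those of Ube2c, a gene of the next role, overlap Tnnc2 on the other strand over 22.8%. The stump libraries came from a directional kit and were mapped with a first-strand setting. The program that wrote the counts is not given in the sources used here, so these overlaps could have shared reads. For MAC and SC the study names no directional kit, so the same holds there.

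All 7 chromosome, kinetochore and anaphase genes fell, with a median log2 fold change of -0.88. Cenpf, a large kinetochore protein of G2 and mitosis, lay at 128, 221 and 333 CPM in immediate DS and 50.2, 82.9 and 127 CPM in delayed DS. It fell by 1.39 on the log2 scale (SE 0.20, edgeR adjusted p = 8.82e-05). Cdc20, which switches on the anaphase-promoting complex, lay at 36.0, 47.0 and 59.9 CPM against 15.2, 20.4 and 33.6 CPM. It fell by 1.04 on the log2 scale (SE 0.16, edgeR adjusted p = 1.61e-04). In neither gene did the groups overlap. Mki67 lay at 376, 503 and 650 CPM against 156, 307 and 403 CPM. It fell by 0.88 on the log2 scale (SE 0.16, edgeR adjusted p = 6.88e-04). For Mki67 the highest delayed value reached into the immediate range. Top2a lay at 250, 306 and 440 CPM against 122, 182 and 248 CPM. It fell by 0.86 on the log2 scale (SE 0.14, edgeR adjusted p = 4.43e-04). Birc5, the survivin of the chromosomal passenger complex, lay at 22.2, 35.2 and 39.4 CPM against 11.1, 20.6 and 24.0 CPM. It fell by 0.79 on the log2 scale (SE 0.16, edgeR adjusted p = 0.00161). The CPM values of Top2a stopped just short of overlapping and those of Birc5 overlapped. The kinetochore motor Cenpe and the ubiquitin-conjugating enzyme Ube2c had log2 fold changes of -0.89 and -0.85.

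The 9 S/G2/M cyclins and kinases also all fell, with a median log2 fold change of -0.88. Ccnb1, the mitotic cyclin B1, lay at 42.3, 55.6 and 92.6 CPM in immediate DS and at 18.0, 29.5 and 35.4 CPM in delayed DS. It fell by 1.16 on the log2 scale (SE 0.18, edgeR adjusted p = 2.46e-04). Its partner kinase Cdk1 lay at 50.0, 58.1 and 75.5 CPM against 18.3, 32.8 and 44.9 CPM. It fell by 0.91 on the log2 scale (SE 0.15, edgeR adjusted p = 3.47e-04). Ccna2, the cyclin A of S phase and G2, lay at 62.8, 95.0 and 114 CPM against 31.7, 47.2 and 69.5 CPM. It fell by 0.88 on the log2 scale (SE 0.15, edgeR adjusted p = 4.78e-04). Cyclin B1 and Cdk1 did not overlap between the groups, and cyclin A2 did. The log2 fold changes of the other 6 genes ran from -0.55 for the centromere kinase Aurkb to -0.92 for the second mitotic cyclin Ccnb2.

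All 4 G1/S cyclins and transcription factors fell, with a median log2 fold change of -0.98. Ccne1, the cyclin E1 of S phase entry, lay at 8.78, 12.5 and 15.3 CPM in immediate DS and at 3.49, 6.13 and 8.34 CPM in delayed DS. It fell by 0.97 on the log2 scale (SE 0.18, edgeR adjusted p = 9.50e-04). Its paralogue Ccne2 and the mitotic transcription factor Foxm1 had log2 fold changes of -1.0 and -1.11, and E2f1 one of -0.68.

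The replication genes moved less. Of 8 licensing and origin firing genes 3 fell, with a median log2 fold change of -0.31 over the 8. Cdc45, the helicase cofactor loaded when origins fire, had a log2 fold change of -0.52 (SE 0.15, edgeR adjusted p = 0.0173), and the ring subunits Mcm7 and Mcm6 had -0.39 and -0.33. Mcm2, another subunit of the same ring, lay at 38.0, 41.6 and 55.3 CPM in immediate DS and 25.1, 38.1 and 51.0 CPM in delayed DS. The log2 fold change was -0.24 (SE 0.13, edgeR adjusted p = 0.191). The delayed and immediate values of Mcm2 overlapped over most of their range. Mcm3, Mcm4 and Mcm5, and Cdc6, which loads the ring, had log2 fold changes of -0.19, -0.25, -0.31 and -0.31, with edgeR adjusted p of 0.257, 0.161, 0.144 and 0.180.

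Of 5 genes of nucleotide supply and the clamp 4 fell, and they were the most uneven of the roles. Rrm2, the regulated small subunit of ribonucleotide reductase, lay at 38.9, 78.5 and 92.0 CPM in immediate DS and 19.1, 28.0 and 41.2 CPM in delayed DS. It fell by 1.23 on the log2 scale (SE 0.18, edgeR adjusted p = 1.31e-04). The large subunit Rrm1 had a log2 fold change of -0.54. Pcna lay at 82.6, 133 and 172 CPM against 62.0, 86.4 and 111 CPM. It fell by 0.52 on the log2 scale (SE 0.16, edgeR adjusted p = 0.0269). Its call was lost in 2 of 16 fits that each left out 1 library, and with replicate number as a block (edgeR adjusted p = 0.0847). Tk1, the thymidine salvage kinase, had a log2 fold change of -0.37 (edgeR adjusted p = 0.0439), a call that held in 6 of the 16 fits. Tyms, which makes thymidylate, was the single gene of the 40 with a positive value. It lay at 76.0, 93.0 and 138 CPM in immediate DS and 87.2, 122 and 156 CPM in delayed DS. This gave a log2 fold change of 0.20 (SE 0.14, edgeR adjusted p = 0.322). limma-voom with sample weights called it higher (0.37, adjusted p = 0.0324). Pcna, Tyms, Ccnb1 and Ccnb2 have processed pseudogenes in the annotation, which could take up part of their reads.

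**Figure D3:**
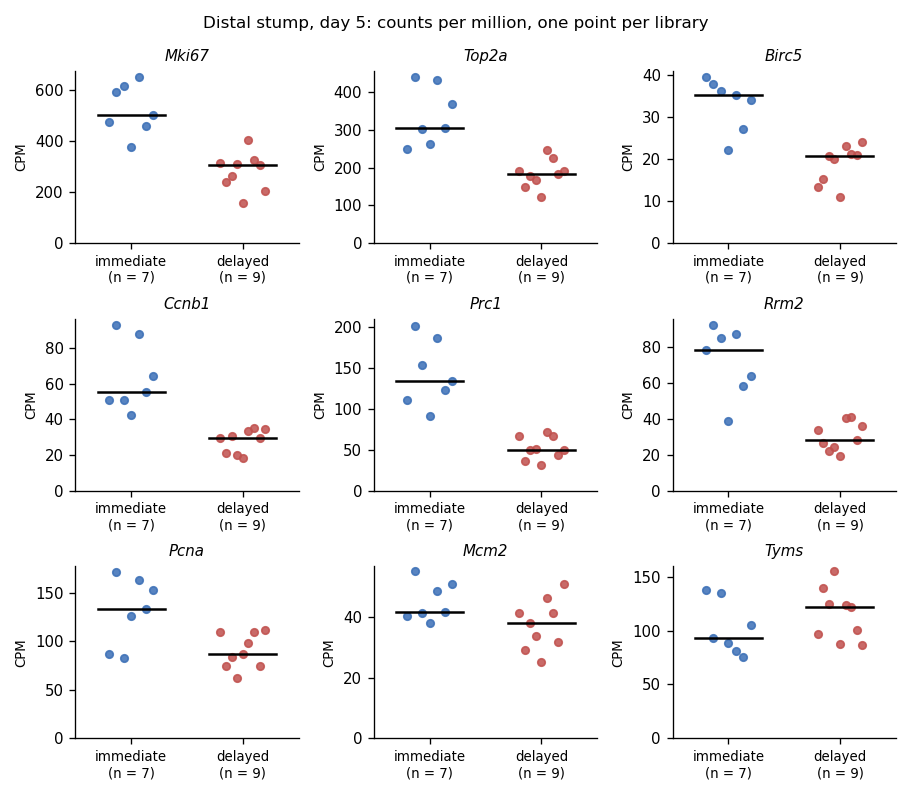
CPM of 9 genes in each DS library at day 5, 1 point per library with a bar at the group median and a vertical axis from 0 for each gene, immediate beside delayed repair. Prc1 and Ccnb1 separate fully and Top2a by a narrow margin, Mki67, Birc5, Rrm2 and Pcna are lower after delay with some overlap, and Mcm2 and Tyms overlap over most of their range.

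Other genes of the same pathways were counted in the same way, beside 13.5% of all genes tested called lower and 12.8% higher. Of 47 other mitosis genes 43 were lower after delayed repair and 0 higher, with a median log2 fold change of -0.83. The smallest p-values were those of the mitotic kinase Pbk, at -1.95 (SE 0.19, edgeR adjusted p = 3.39e-06), the centromeric histone Cenpa, at -0.83, and the cleavage regulator Racgap1, at -1.23. Of 40 other DNA replication genes 14 were lower and 0 higher, with a median of -0.34, among them the chromatin assembly subunit Chaf1a at -0.72 and the methylation maintenance factor Uhrf1 at -0.80. Of 16 DREAM and E2F regulators 6 were lower, among them E2f6, Mybl1 and E2f8 with log2 fold changes of -0.70, -0.84 and -0.78. Among 8 G1 cyclins and kinases, cyclin D1 (Ccnd1) fell by 1.91 on the log2 scale (SE 0.22, edgeR adjusted p = 1.24e-05). Its partner kinases split, with a log2 fold change of -0.32 for Cdk4 and 0.49 for Cdk6, both called. Of 15 cell cycle inhibitors tested 3 were lower, namely Cdkn2c, Cdkn2b and Cdkn2d, all INK4 inhibitors of Cdk4 and Cdk6, with log2 fold changes of -0.78, -0.97 and -0.68. The antiproliferative gene Btg1 was higher, with 0.48. The counts of inhibitors are near the shares of all genes and are not read as a result about inhibitors.

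Markers of cell types moved with repair in the same libraries, where 13.5% of all genes tested were called lower and 12.8% higher. The 8 Schwann cell markers were all lower, with a summed level of 105 to 654 CPM in delayed and 1047 to 2511 CPM in immediate DS and a median log2 fold change of -2.36. Of 8 endothelial markers 6 were higher, with 1207 to 1770 CPM summed in delayed against 764 to 1065 CPM in immediate DS. Of 8 mural cell markers 5 were higher and 1 lower (1104 to 1411 against 695 to 978 CPM). Of 8 macrophage markers 2 were higher (2257 to 3873 against 966 to 3444 CPM), and of 8 fibroblast markers 0 were called by edgeR, with 2 at an unadjusted p under 0.05. No defining marker of these lists was at 0 in every library. The part of any cell type in the fall of the proliferation genes was not tested. In delayed DS replicate 5, skeletal muscle markers summed to 9179 CPM, above all other DS libraries, and without it 33 of the 40 genes were lower, with a median log2 fold change of -0.76.

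In the sorted cells none of the 40 genes was called between delayed and immediate repair. In MAC at day 5, 13 of the 40 passed the filter and 0 were called by edgeR, where 0.0357% of all genes tested were called. Before adjustment 1 gene was under 0.05, the ring subunit Mcm4, with a log2 fold change of -0.35 (SE 0.14, edgeR adjusted p = 0.846), and 5.17% of all genes reached that level. Mki67 lay at 11.5, 24.1 and 28.0 CPM in immediate and 9.56, 15.4 and 32.5 CPM in delayed MAC. The difference on the log2 scale was -0.30 (SE 0.26). Pcna lay at 112, 142 and 187 CPM against 123, 138 and 167 CPM, with a log2 fold change of -0.10 (SE 0.13). The log2 fold changes of Mcm2 and Ccne1 were 0.01 and 0.03. Both groups covered the same range for each of these genes. In MAC at day 14, 12 of the 40 passed and 0 were called or under 0.05 before adjustment (0% and 2.21% of all genes). There the log2 fold changes were -0.42 for Mki67 (SE 0.21), -0.40 for Top2a (SE 0.42), 0.50 for Mcm2 (SE 0.24) and 0.02 for Pcna (SE 0.10). The members that did not pass in MAC were mostly mitotic: 3 of the 23 cyclin-kinase, chromosome and spindle genes were tested on each day, and Birc5 for example lay between 0.0458 and 3.94 CPM in immediate day 5 MAC.

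In SC at day 5, 27 of the 40 passed the filter and 0 were called by edgeR, where 0% of all genes tested were called. Before adjustment 1 gene was under 0.05, Mki67, and 5.26% of all genes reached that level. It lay at 7.12, 32.8 and 74.6 CPM in immediate and 7.98, 18.1 and 27.9 CPM in delayed SC. Its log2 fold change was -0.91 (SE 0.40, edgeR adjusted p = 0.913). Top2a lay at 4.32, 18.1 and 54.4 CPM against 2.54, 12.4 and 51.1 CPM. The log2 fold change was -0.04 (SE 0.60). Pcna lay at 57.9, 80.4 and 121 CPM against 62.2, 99.6 and 134 CPM, with 0.21 (SE 0.15). Mcm2 had a log2 fold change of 0.04 (SE 0.73), Rrm2 of 1.14 (SE 1.13) and Birc5 of 1.04 (SE 0.87). Single libraries reached far above the rest, as did Ccnb1 at 116 CPM in 1 immediate library while the other 6 lay between 0 and 6.71 CPM. Cell type markers differed in the same comparison, although edgeR called none of them. Every macrophage marker had a positive log2 fold change, from 0.88 for Cd68 to 2.24 for Csf1r. Every Schwann cell marker had a negative one, from -0.70 for Mbp to -2.81 for S100b. The part of these markers in the values of the 40 genes was not tested.

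In SC at day 14 all 40 passed, and 0 were called by edgeR (0% of all genes). Signs by role are given without the share of each sign over all genes tested, and are not read as a difference between roles. The 8 licensing genes and the 5 nucleotide and clamp genes all had negative log2 fold changes, with medians of -0.41 and -0.36. Of the 7 spindle genes 6 had positive log2 fold changes, with a median of 0.53. The summed level of the 7 spindle genes did not share that direction by its median, which was 70.7 CPM in delayed and 125 CPM in immediate SC, while its mean was 178 CPM (SD 157) against 128 CPM (SD 80.5), with the highest delayed library at 433 CPM. Before adjustment 3 genes were under 0.05 (3.65% of all genes), Rrm2, Mcm6 and Mcm3. Rrm2 lay at 9.43, 35.6 and 112 CPM in immediate and 8.51, 14.5 and 40.3 CPM in delayed SC. This gave a log2 fold change of -1.24 (SE 0.49, edgeR adjusted p = 0.998), and those of Mcm6 and Mcm3 were -0.61 and -0.42. The 2 groups overlapped in each of them. The log2 fold changes of the other genes followed across comparisons were -0.47 for Mki67 (SE 0.39), -0.30 for Top2a (SE 0.57), -0.07 for Mcm2 (SE 0.31), -0.16 for Pcna (SE 0.15), 0.05 for Ccne1 (SE 0.47), 1.07 for Ccnb1 (SE 0.77) and -0.31 for Birc5 (SE 0.58). DESeq2 and limma-voom also called 0 of the 40 by repair in MAC and in SC on both days. Of the other cell cycle lists, 0 genes were called by edgeR on either day. The change of the repair effect with day, tested as an interaction, was called by edgeR, DESeq2 and limma-voom alike for 0 of 21 genes tested in MAC (0.0223% of all genes called by edgeR) and 0 of 40 in SC (0% of all genes). Before adjustment 1 gene was under 0.05 in MAC, Prc1, where 3.61% of all genes were, and 0 in SC, where 4.80% were.

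Day 14 was compared with day 5 within each sorted cell type and repair group. In immediate MAC 12 of the 40 passed the filter and 1 was lower at day 14, where 6.01% of all genes were called lower and 5.33% higher. This was Pcna, which lay at 112, 142 and 187 CPM at day 5 and 99.1, 118 and 151 CPM at day 14 and fell by 0.41 on the log2 scale (SE 0.13, edgeR adjusted p = 0.0468). The call was lost with scaling by library size alone (-0.23, edgeR adjusted p = 0.186), with replicate number as a block (edgeR adjusted p = 0.127), without a filter and in 12 of 16 fits that each left out 1 library. With scaling by library size 81.1% of the calls over all genes were higher, against 47.0% with TMM scaling. Ccne1 did not pass the filter in this comparison. It was called lower at day 14 with edgeR's own expression filter (-1.13, edgeR adjusted p = 0.0164) and without a filter (-1.13, edgeR adjusted p = 0.0218). Mki67 lay at 11.5, 24.1 and 28.0 CPM at day 5 and 18.6, 32.8 and 42.3 CPM at day 14. The difference on the log2 scale was 0.42 (SE 0.20, edgeR adjusted p = 0.187). Top2a and Mcm2 had 0.65 (SE 0.39) and -0.24 (SE 0.21). In delayed MAC 14 of the 40 passed and 0 were called by edgeR, DESeq2 or limma-voom (6.41% of all genes by edgeR). Before adjustment 3 genes were under 0.05 (22.0% of all genes), E2f1 with a log2 fold change of -0.36, Ccne1 with -0.99 (SE 0.36, edgeR adjusted p = 0.111) and Pcna with -0.29 (SE 0.11, edgeR adjusted p = 0.102). Mki67, Mcm2 and Top2a had 0.30, 0.25 and -0.32. Of the other cell cycle genes, the histone mRNA binding protein Slbp, the spindle protein Ckap2l and the Cdk inhibitor Cdkn1a (p21) were lower at day 14 after both repairs, with log2 fold changes of -0.56, -1.31 and -0.70 in immediate and -0.61, -1.62 and -0.48 in delayed MAC. In delayed MAC alone, the replication gene Chaf1b was called higher (1.21, edgeR adjusted p = 0.0111) and the inhibitor Cdkn2d lower (-0.47, edgeR adjusted p = 0.0467). The 8 dendritic cell markers in MAC summed to 953 to 4288 CPM at day 5 and 6131 to 16236 CPM at day 14. Of the 4 tested, 2 were higher after both repairs, the antigen presentation genes Cd74 (log2 fold change 2.02 in immediate and 1.81 in delayed MAC) and H2-Aa (2.22 and 1.96), which macrophages express too. Ccr7 (-1.45 and -0.98) and Xcr1 (0.18 and 0.25) were not called. The part of these markers in the day differences was not tested.

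In immediate SC 37 of the 40 passed and 0 were called between the days by edgeR (3.81% of all genes). A median of 5 CPM or more was reached by 18 genes at day 5 and by 37 at day 14, so many passed through their day 14 libraries and no count of signs is given. Before adjustment 4 were under 0.05 (18.6% of all genes), Birc5, Rrm2, Tyms and Pcna. Birc5 went from 0.246, 2.80 and 9.62 CPM at day 5 to 1.78, 21.9 and 33.4 CPM at day 14. Its log2 fold change was 2.28 (SE 0.69, edgeR adjusted p = 0.0755). Rrm2 went from 3.22, 11.8 and 21.7 CPM to 9.43, 35.6 and 112 CPM, with a log2 fold change of 1.93 (SE 0.54, edgeR adjusted p = 0.0572). Both medians were higher at day 14 and the ranges overlapped. DESeq2 called 3 genes higher, Rrm2, Birc5 and Tyms, and without immediate day 5 SC replicate 5 edgeR called 2, Rrm2 and Birc5. Top2a had a log2 fold change of 1.01 (SE 0.52), Mcm2 of 0.56 (SE 0.36), Pcna of 0.41 (SE 0.17) and Mki67 of 0.02 (SE 0.42). That of Ccnb1 was -0.05 (SE 1.36) and became 3.47 without the same library. In delayed SC 36 of the 40 passed and 0 were called by edgeR (8.09% of all genes). Here 19 genes had a median of 5 CPM or more at day 5 and 35 at day 14. Before adjustment 6 were under 0.05 (26.6% of all genes). Ccnb1 lay at 0, 4.13 and 13.5 CPM at day 5 and 1.76, 11.6 and 156 CPM at day 14. The log2 fold change was 2.71 (SE 1.04, edgeR adjusted p = 0.108), and DESeq2 called it. Cenpf had 2.16 (SE 0.83, edgeR adjusted p = 0.106), and was called without delayed day 5 SC replicate 5 and by limma-voom. Top2a, Birc5, Ccne1, Mcm2, Mki67, Pcna and Rrm2 had log2 fold changes of 0.76, 0.92, 0.54, 0.46, 0.44, 0.04 and -0.44.

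The sign of a day difference in SC leans on the scaling: with library size alone 42.9% of the calls over all genes were higher in immediate SC, against 18.8% with TMM and 30.1% with DESeq2, and 70.8% against 41.3% in delayed SC (64.1% against 51.2% in delayed MAC). Among the other cell cycle genes, Trp53 rose by 0.61 on the log2 scale in immediate SC and Btg1 fell by 0.55. In delayed SC the growth regulator Myc rose by 2.13 and the Cdk inhibitor Cdkn1c by 2.97, and the DNA polymerase subunit Pold1 fell by 1.31, Gins3 by 1.09 and Btg1 by 0.59, all on the log2 scale. Fibroblast markers in SC summed to 16.4 to 9103 CPM at day 5 and 974 to 20550 CPM at day 14, and Schwann cell markers to 142 to 1251 CPM and 457 to 3396 CPM; the part of either in the day differences was not tested.

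SC and MAC from the same bridges were compared on each day, over both repair groups. With the animal left out of the fit, most of the genes tested were called higher in SC, fewer of them with the animal as a block. At day 5, 30 of the 40 passed the filter, and 21 were higher and 2 lower in SC (edgeR), where 35.6% of the 10087 genes tested were called higher and 29.9% lower. At day 14 all 40 passed, and 35 were higher and 2 lower, where 36.9% of 10596 genes were called higher and 27.5% lower. The 10 genes that did not pass at day 5 were Ccne2, Cdc6, Plk1, Bub1, Cenpe, Cenpf, Ube2c, Kif11, Kif23 and Anln, and a gene that is low in MAC passes through its SC libraries, so the day 5 count is not a count over all 40. With each animal as a block 8 were higher and 2 lower at day 5, and 26 higher and 2 lower at day 14. The share of all genes called with that block is not given here. Whether these counts exceed it was therefore not assessed. The p-values of SC against MAC below come from the fit without the animal, unless the block is named. With library size as the sole scaling the median of all genes moved by 0.25 at day 5 and by 0.37 at day 14. Then 68.3% instead of 54.4% of the calls over all genes were higher in SC at day 5, and 76.7% instead of 57.3% at day 14.

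The replication licensing genes were the steadiest of these differences, with 7 of 7 tested higher in SC at day 5 and 8 of 8 at day 14. Mcm5 lay at 5.54, 28.2 and 43.7 CPM in day 5 SC and at 1.10, 5.09 and 9.91 CPM in day 5 MAC. This gave a log2 fold change of 1.99 (SE 0.25, edgeR adjusted p = 2.56e-08). At day 14 it lay at 12.4, 42.3 and 102 CPM against 3.24, 7.09 and 18.7 CPM, with a log2 fold change of 2.25 (SE 0.26, edgeR adjusted p = 7.12e-09). Mcm6 had a log2 fold change of 1.21 (SE 0.18) at day 5 and 1.31 (SE 0.15) at day 14. Mcm7 had 1.76 (SE 0.31) and 2.14 (SE 0.17). At day 14 Mcm7 had the smallest edgeR adjusted p of the 40 genes (4.52e-12) and did not overlap between SC (22.3 to 78.2 CPM) and MAC (4.26 to 10.5 CPM). Mcm3 and Mcm4 differed less, by 0.88 and 0.59 at day 5 and by 0.73 and 0.76 at day 14. Mcm2 had 0.86 at day 5 (SE 0.38, edgeR adjusted p = 0.0461; 0.292 with the animal as a block) and 1.35 at day 14 (SE 0.20, edgeR adjusted p = 1.05e-06). Cdc45 had 1.98 at day 14 (SE 0.33).

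In nucleotide supply, Tyms lay at 2.60, 9.55 and 22.9 CPM in day 5 SC against 1.41, 2.97 and 7.35 CPM in MAC. The difference on the log2 scale was 1.19 (SE 0.22, edgeR adjusted p = 2.27e-05), and 1.60 at day 14 (SE 0.22). Rrm2 lay at 8.51, 26.1 and 112 CPM in day 14 SC against 0.270, 2.65 and 11.0 CPM in MAC. Its log2 fold change was 2.63 (SE 0.42, edgeR adjusted p = 2.64e-06). At day 5 it had 2.06 (SE 0.71, edgeR adjusted p = 0.0115; 0.194 with the animal as a block). Pcna went the other way. It lay at 57.9, 88.1 and 134 CPM in day 5 SC and 112, 139 and 187 CPM in day 5 MAC. The log2 fold change was -0.94 (SE 0.10, edgeR adjusted p = 7.69e-10). At day 14 its CPM ranges nearly coincided, at 97.3 to 152 CPM in SC and 99.1 to 151 CPM in MAC, and its log2 fold change of -0.40 (SE 0.08, edgeR adjusted p = 1.44e-04) became -0.04 with library size as the sole scaling (edgeR adjusted p = 0.609). E2f1 was the other gene lower in SC, at 2.67, 12.6 and 23.6 CPM against 17.2, 22.8 and 31.4 CPM at day 5, with a log2 fold change of -1.39 (SE 0.19, edgeR adjusted p = 1.22e-07), and at day 14 it was -1.02 (SE 0.18). Its partner in S phase entry, Ccne1, had -0.94 at day 5 (SE 0.53, edgeR adjusted p = 0.119) and 0.73 at day 14 (SE 0.31, edgeR adjusted p = 0.0435; 0.0760 with the animal as a block).

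**Figure D4:**
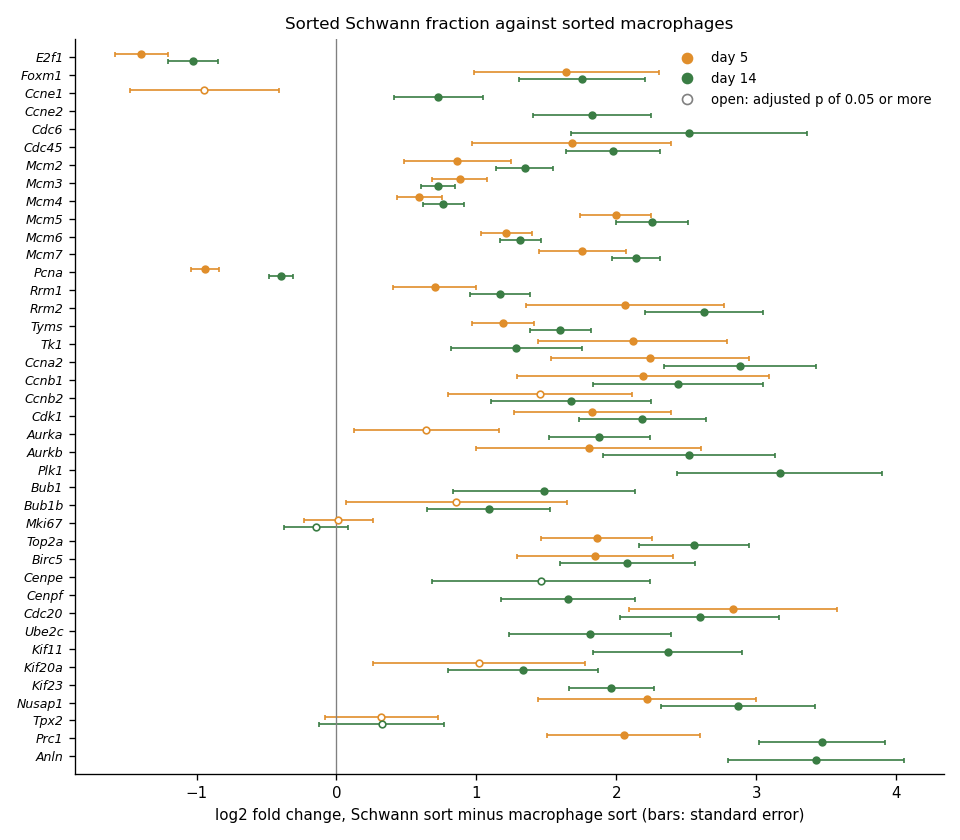
Log2 fold change of SC against MAC with bars of 1 SE at day 5 and day 14 for the 40 genes grouped by role; filled points passed the edgeR test, open points did not, and a gene without a point was not tested. E2f1 and Pcna lie below 0 on both days, Mki67 lies near 0, and Prc1 and Anln lie highest at day 14.

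The mitotic genes differed most and varied most. Prc1 lay at 5.23, 37.8 and 122 CPM in day 14 SC against 0.511, 3.49 and 6.86 CPM in MAC. This gave a log2 fold change of 3.47 (SE 0.45, edgeR adjusted p = 7.80e-08). Top2a lay at 2.34, 32.2 and 121 CPM against 0.743, 6.08 and 10.2 CPM, with 2.56 (SE 0.39, edgeR adjusted p = 1.46e-06). In both the SC range began inside the MAC range and ran far above it. At day 5 Prc1 had 2.05 (SE 0.54, edgeR adjusted p = 0.00136; 0.133 with the animal as a block), Top2a 1.86 (SE 0.40), Birc5 1.85 (SE 0.56) and Cdc20 2.84 (SE 0.74, edgeR adjusted p = 0.00120; 0.177 with the animal as a block). At day 14 Kif23, a motor of the central spindle, had a log2 fold change of 1.96 (SE 0.31), Birc5 of 2.08 (SE 0.48) and Ccnb1 of 2.44 (SE 0.61). For Ccnb1 the day 5 value of 2.19 (SE 0.90, edgeR adjusted p = 0.0330) became -0.08 with the animal as a block (edgeR adjusted p = 0.936). Without immediate day 5 SC replicate 5, and likewise without delayed day 5 SC replicate 5, 24 genes passed the filter at day 5 and 15 were higher.

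Mki67 was not called on either day. It lay at 7.12, 22.7 and 74.6 CPM in SC and 9.56, 21.8 and 32.5 CPM in MAC at day 5, with a log2 fold change of 0.01 (SE 0.24, edgeR adjusted p = 0.963). At day 14 it lay at 7.34, 33.3 and 53.0 CPM against 11.6, 28.5 and 42.3 CPM, with a log2 fold change of -0.15 (SE 0.23, edgeR adjusted p = 0.589) and 0.20 with library size as the sole scaling. Tpx2 and Cenpe were the other genes not called at day 14, with 0.32 and 1.46 (edgeR adjusted p = 0.543 and 0.101). Of the other pathway lists, 11 of 30 replication genes tested at day 5 and 19 of 33 at day 14 were higher in SC, the first a share near the 35.6% of all genes given above, with Pold1 at 2.73 and 1.70, Gins3 at 4.55 and 2.75 and Uhrf1 at 2.63 and 2.91. Of the other mitosis genes 11 of 22 and 34 of 40 were higher, with Cenpa at 1.82 and 1.26, Plk4, the kinase of centriole duplication, at 2.21 and 1.72 and Spc24 at 1.46 and 1.81. In these lists too, a gene that is low in MAC passes the filter through its SC libraries. Their counts are therefore not counts over the whole lists and are not read as results about them. The D-type cyclins were all higher in SC, with log2 fold changes of 4.69 and 4.52 for Ccnd2, 3.72 and 3.11 for Ccnd1 and 1.89 and 2.44 for Ccnd3 at day 5 and day 14. So were the inhibitors Cdkn1b (p27), with 4.49 and 3.44, Cdkn2b (p15), with 6.61 and 5.51, and Ccng2, with 1.85 and 1.86. Of the DREAM and E2F regulators 6 were higher on each day, where 35.6% and 36.9% of all genes tested were called higher. This count is not read as a result about these regulators. Lin54, a DNA-binding subunit of DREAM, was lower, with -1.57 and -1.27. The SC libraries carried the dendritic cell markers given above, each of them with reads, and their part in these differences was not tested.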

How the data were processed

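RNA-seq was performed by the study on macrophages and Schwann cells sorted from the bridge (1000 cells each, amplified cDNA, 4 ng or 1.5 ng into the library) and on distal stump RNA (100 ng, rRNA-depleted, directional kit). The deposited values are estimated counts per gene on mm10, mapped with UCSC gene models; 0.952%, 0.951% and 1.18% of the MAC, SC and DS values were not whole and were rounded. The submitters' processing notes name cutadapt 1.8, TopHat2 2.1.1, Cufflinks 2.2.1 and Cuffnorm. The study's methods give TopHat2 a first-strand library setting, and Cufflinks the same setting where it applied; the program that wrote the counts is not given in the sources used here. Exon lengths, overlaps and pseudogenes were taken from GENCODE vM21, which is not the annotation of the counts. 0 pairs of libraries were identical.

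Genes that reached 5 CPM in 6 or more of the libraries compared were tested with edgeR 4.0.16 (R 4.3.3; TMM scaling, quasi-likelihood F test, Benjamini-Hochberg over all genes tested, threshold 0.05), repair group, day or cell type being the sole factor, and repair, day and their product for the interaction. SE is the log2 fold change over the square root of F. The SC versus MAC fits leave the animal out, although the labels give it. Libraries of the same animal deviated together weakly. The median correlation of deviations was 0.105 over 16 pairs at day 5 and 0.106 over 15 pairs at day 14. Counts with the animal as a block are given, and single values for some of the genes whose call it changes. Alternatives were DESeq2 1.42.0, limma-voom (limma 3.58.1) with sample quality weights, library size scaling, other filters, sex as a covariate, replicate number as a block, all 4 groups in a single fit, and leaving out each library. The scripts were tested on simulated data.

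The 40 genes and all gene lists were chosen with earlier results of these data known. Values are given for up to 12 called genes with the smallest p, for Mki67, Top2a, Mcm2, Pcna, Rrm2, Ccne1, Ccnb1 and Birc5 wherever tested, and for up to 3 genes of each other list; genes named beyond these were chosen after their values were seen. Other marker lists were summed as well. In DS 1 of 2 tested T and NK cell markers, 0 of 1 B cell markers and 1 of 3 erythroid markers were higher, and 2 of 6 neutrophil and mast cell markers were lower. Of all genes tested there 12.8% were called higher and 13.5% lower, and counts this small are not read as results. Read counts limit the precision of genes near 0 in MAC and SC.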

Additional observations from a re-analysis of the deposited data

Results flagged for a closer look

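In 90 combinations of a gene and a group of 4 to 10 libraries, 2 single libraries stood apart from the rest of their group; chance gives about 1 in 20. Mcm2 in immediate day 5 MAC replicate 3 was the lowest of its group at 3.66 CPM, with the other libraries between 6.34 and 10.1 CPM. Ccnb1 in immediate day 5 SC replicate 5 was the highest of its group at 116 CPM, with the other libraries between 0 and 6.71 CPM.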

How the results depend on the processing

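In the stump 32 of the 34 lower genes were lower in every fit that left out a library, and 33 in all 7 other alternatives; the exceptions were Pcna and Tk1, and the count ran from 32 to 35 when libraries were left out. limma-voom called 1 gene higher there, Tyms. Over all comparisons 184 of the counts of called genes stayed within 1.5 times the printed count under the other alternatives and 14 moved, and of the single gene values 767 kept sign and side of the threshold, 36 changed sign, 6 gained and 19 lost the call; the cause was not tested.

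Counts that moved were, for day 14 against day 5 in immediate MAC, 1 higher and 0 lower with library size scaling, 2 lower with DESeq2, with edgeR's own expression filter and with 4 groups in a single fit, 0 lower with the replicate block, and 0 to 1 lower without single libraries. In delayed MAC 1 was lower with sex as a covariate. In immediate SC 3 were higher with DESeq2 and 0 to 2 without single libraries. In delayed SC 1 was higher with DESeq2, limma-voom or the replicate block, and 0 to 1 without single libraries. For SC against MAC the animal block left 8 higher at day 5, 15 were higher without either of 2 SC libraries chosen after the data were seen, and library size scaling left 1 lower at day 14.

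Signs of uncalled genes turned as follows, in log2 fold change. By repair, MAC day 5 Mcm2 became -0.0011 with DESeq2, -0.0267 with sex, -0.109 with limma-voom and -0.173 with the block, MAC day 14 Pcna -0.0017 with library size, SC day 5 Mcm2 -0.376 with sex, -0.629 with limma-voom and -0.982 with the block, SC day 5 Rrm2 -1.13 with limma-voom and -1.88 with the block, SC day 5 Top2a 0.0617 with library size and 0.295 with limma-voom, and SC day 14 Ccnb1 -0.433 with limma-voom. By day, delayed MAC Top2a became 0.0020 with the block, immediate SC Ccnb1 1.72 with sex, 3.94 with limma-voom and 4.66 with the block, delayed SC Pcna -0.0491 with limma-voom and Rrm2 1.62 with limma-voom and 2.73 with the block. In the interaction, MAC Ccne1 became -0.100 with limma-voom and -0.145 with the block, Rrm2 -0.870 and -0.126, and Ccnb1 -0.852 with limma-voom; SC Ccne1 became 0.122 with the block, Mcm2 0.0233 with sex, 0.388 with limma-voom and 0.737 with the block, and Ccnb1 -1.92 and -0.778. For SC against MAC, day 5 Mki67 became -0.0138 without a filter, -0.236 with limma-voom and -0.0545 with the animal block, day 5 Ccnb1 -0.0781 with that block, and day 14 Mki67 0.201 with library size.

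Leaving out single libraries turned the sign of MAC day 5 Ccne1 (-0.0797 to 0.167) and Mcm2 (-0.132 to 0.114), MAC day 14 Pcna (-0.0134 to 0.0681), SC day 5 Mcm2 (-0.203 to 0.209) and Top2a (-0.325 to 0.397), SC day 14 Ccne1 (-0.125 to 0.312), Mcm2 (-0.163 to 0.185) and Top2a (-0.900 to 0.0259), immediate SC by day Ccnb1 (-0.313 to 3.47) and Mki67 (-0.148 to 0.289), delayed SC by day Pcna (-0.0125 to 0.0923) and Rrm2 (-0.627 to 0.341), and SC against MAC day 5 Mki67 (-0.0564 to 0.0723). Replicate numbers shared between repair groups did not pair the samples in every pair (1 of 7 DS pairs and 7 of 8 MAC day 5 pairs correlated above 0.1), and blocking by number gave 33 lower genes in the stump. In MAC and SC, genes that did not reach 5 CPM in 6 or more of the libraries compared were left out of the main tests by that filter.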

Other observations

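The mean log2(CPM + 1) over the 40 genes is given here by sex, without a test. In immediate day 5 MAC it ran from 1.85 to 2.66 in 4 females and from 1.69 to 1.95 in 4 males, and in delayed day 5 MAC from 2.18 to 2.57 in 5 females and from 1.81 to 2.29 in 4 males. In day 5 SC the medians were 3.52 in 3 females and 1.91 in 4 males after immediate repair, and 3.29 in 5 females and 1.89 in 4 males after delayed repair, with overlapping ranges. At day 14 the SC medians were 3.92 in females and 3.89 in males after immediate repair and 3.25 and 4.14 after delayed repair, and the MAC medians were 2.42 and 2.06 after immediate repair, while after delayed repair MAC ran from 2.50 to 2.93 in females and from 1.63 to 3.01 in males. In DS the medians were 5.92 in females and 5.86 in males after immediate repair and 5.25 and 5.07 after delayed repair.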
